A study of Mus musculus with 12 samples.

Results

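The 6 St3gal genes (St3gal1 to St3gal6) and the 2 Wscd genes (Wscd1 and Wscd2) were followed across neurons of the mouse pontine nucleus. They were found by symbol in a table of read counts, where they make up 8 of 23079 genes, and all 8 were present. The rule selects them by name, and they were chosen by a reading of the fitted differences between the label groups, so the same comparisons stand behind the choice. Their differences are therefore a description of these libraries, and the adjusted p values, taken over all genes, are the output of the fit and no independent support.

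Pontine nucleus neurons relay signals from the cortex to the cerebellum and arise from the rhombic lip, a dorsal germinal zone of the hindbrain marked by Math1 (Atoh1). The samples came from CD-1 embryos at stage E18.5, and each library was made from 2000 neurons that had been genetically labelled, dissected, dissociated and sorted by fluorescence. RNA of 1000 cell equivalents was amplified before sequencing. Labels gave 3 groups, which share strain, tissue and stage: Math1tdTomato, the reference (n = 6), Hoxa5tdTomato (n = 3) and Math1Hoxa5-IRES-GFP (n = 3). The last is called driven here after its column names, which add Cag, lsl and Hoxa5 to Math1. The labels do not say at which stage or in which cells each allele acts, nor whether replicates came from separate embryos or litters. The p values thus measure only the spread between these samples, which may be technical.

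Column names split the references into 3 that name creErt2 and 3 that name tdT. By the words of these names, the creErt2 references were placed with the Hoxa5tdTomato libraries (set 1) and the tdT references with the driven libraries (set 2), a pairing that no label states. Set 1 had total counts of 9973484 to 13302076 per library and set 2 had 22355961 to 29820776, which leaves the effects of depth and of set inseparable. Between the references of the sets 197 of 14732 tested genes differed (1.34%), and none of the members was among them. Driven replicate 3 stood apart, with a count for 13074 genes against 14779 to 16290 in the other libraries and a mean Pearson correlation of 0.864 with the other libraries of its group over tested genes, against 0.887 to 0.94 for the other 11 libraries. Results on the members that rest on it are given with and without it. Calls of other genes are given with it only.

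Levels are given as CPM, a gene's count relative to the total of its library after TMM scaling, which corrects that total for differences in composition. Hoxa5, the gene named in the labels, stood at 119, 127 and 222 CPM in the Hoxa5tdTomato libraries and at 4.35 to 32.2 CPM in the references. In the driven libraries it stood at 9.73, 16.8 and 82 CPM. Driven replicates 1 and 2 thus lay inside the reference range, and Hoxa5 did not pass the test in that group (log2 fold change 1.35 ± 0.59, SE, edgeR adjusted p = 0.255). Statements on the driven group follow its label alone.

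Sialic acid is an acidic sugar that caps the chains of glycoproteins and glycolipids at the cell surface, and brain gangliosides are rich in it. The enzymes encoded by the St3gal genes transfer it to a terminal galactose. St3gal1 and St3gal2 act mainly on the galactose of O-glycans and of gangliosides, St3gal3, St3gal4 and St3gal6 mainly on glycoproteins, and St3gal5 makes GM3, the ganglioside from which most others are built. Wscd1 and Wscd2 carry WSC domains, and their products have been described as sulfotransferases that act on sialic acid.

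In the references the members covered a wide range of levels per length (RPKM, the CPM divided by the deposited gene length in kilobases). Wscd1 was highest at 59 ± 10.6 RPKM (SD, n = 6), above St3gal5 at 21 ± 3.44 RPKM. St3gal1 at 9.88 ± 3.12 RPKM and St3gal2 at 9.71 ± 0.965 RPKM overlapped in range. Below them, St3gal3 (4.33 ± 1.64 RPKM), St3gal4 (2.77 ± 1.34 RPKM) and St3gal6 (2.31 ± 1.52 RPKM) each overlapped the next, and Wscd2 was at 0.0151 ± 0.0273 RPKM. Of the 8 genes, 7 passed the filter on low counts, and Wscd2 did not.

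**Figure D1:**
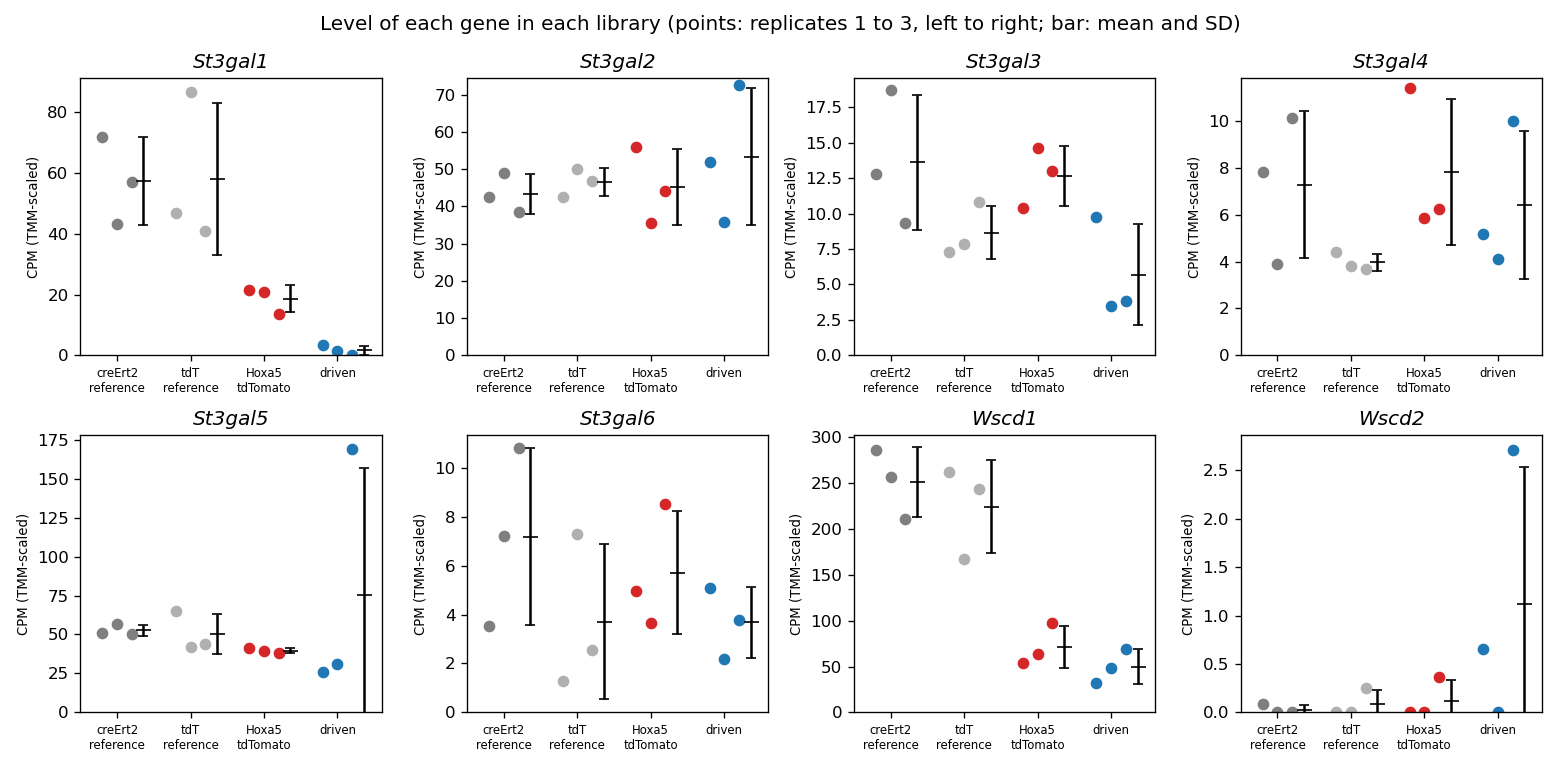
Level of each of the 8 genes in CPM (y axis, TMM-scaled, own scale per gene) in each library of the 4 column-name groups (x axis). Points are replicates 1 to 3 from left to right, and the black mark with its bar is the mean and SD of the 3 libraries, with bars cut off at 0. St3gal1 runs from 40.9 to 86.8 CPM in the references, from 13.6 to 21.6 in Hoxa5tdTomato and from 0.201 to 3.31 in driven libraries.

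Wscd1 was lower in both groups than in the references. It stood between 167 and 286 CPM in the 6 references, with a median of 251 CPM. The Hoxa5tdTomato libraries held 53.9, 63.3 and 97 CPM, and the driven libraries held 32, 48.3 and 69.5 CPM. All 6 values of the latter groups lay below every reference, while the ranges of Hoxa5tdTomato and driven overlapped. Fewer cells that express the gene and less of its RNA per cell cannot be told apart in such bulk samples.

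In the edgeR quasi-likelihood test over all 14732 tested genes, Wscd1 fell in Hoxa5tdTomato, with a log2 fold change of -1.74 ± 0.26 (SE), 3.33-fold lower than in the references (adjusted p = 0.00241). It was the single member called in that comparison, in which 1.73% of all genes were called, 0.842% higher and 0.889% lower. In driven libraries it fell as well (-2.25 ± 0.27, 4.76-fold lower, adjusted p = 0.000181). There 1.84% of all genes were called, 1.3% higher and 0.543% lower, and the members called lower were Wscd1 and St3gal1. Both comparisons used the same 6 references, and both had been seen when the genes were chosen, so nothing is read from these counts against the background. Against the references of its own set, the log2 fold change of Wscd1 was -1.82 ± 0.28 in Hoxa5tdTomato (adjusted p = 0.00735) and -2.17 ± 0.28 in driven libraries (adjusted p = 0.00127), where 0.557% and 0.862% of all genes were called. With any 1 of the 12 libraries left out, both calls were made, the highest adjusted p being 0.0369 for Hoxa5tdTomato and 0.00201 for driven.

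Hoxa5tdTomato and driven libraries differed in Wscd1 by 0.51 ± 0.28 (log2, 95% interval -0.07 to 1.1, adjusted p = 0.29), so a difference was not shown. That comparison joins libraries of different sets, so the set and the condition cannot be told apart in it. The sets share no library, and the difference between the within-set changes of Wscd1 was 0.35 (log2, adjusted p = 0.866).

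The Wscd1 gene lies on the plus strand at chr11:71749920-71789647 (GRCm38, GENCODE M21) and overlaps no other annotated gene. RefSeq promoter windows of 300 bases around a transcript start were at hand for 5 of the 8 members in build GRCm38.p6. St3gal1, St3gal2 and Wscd2 had no entry. Wscd1 has 3 windows, of which the first and the last are printed because they show how different its starts are in base composition. Capitals mark CG dinucleotides, the sites of DNA methylation in mammals.
Wscd1 window at chr11:71750435-71750734 (plus strand): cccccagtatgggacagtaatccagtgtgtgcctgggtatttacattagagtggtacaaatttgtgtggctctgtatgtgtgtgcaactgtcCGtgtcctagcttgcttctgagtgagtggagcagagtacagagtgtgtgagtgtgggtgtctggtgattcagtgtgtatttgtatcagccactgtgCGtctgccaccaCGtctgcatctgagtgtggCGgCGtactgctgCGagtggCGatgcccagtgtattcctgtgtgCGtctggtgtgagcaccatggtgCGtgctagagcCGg
Wscd1 window at chr11:71750765-71751064 (plus strand): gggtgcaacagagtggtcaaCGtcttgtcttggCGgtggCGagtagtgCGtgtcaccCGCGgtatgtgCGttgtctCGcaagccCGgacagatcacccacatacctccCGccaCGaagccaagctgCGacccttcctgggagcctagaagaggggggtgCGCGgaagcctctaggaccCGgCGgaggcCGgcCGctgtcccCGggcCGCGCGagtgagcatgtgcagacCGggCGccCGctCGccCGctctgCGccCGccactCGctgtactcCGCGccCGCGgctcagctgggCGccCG
The upstream window holds 10 CG and 53.7% G and C, near the median of all 32851 promoter windows (7 CG and 52.7%). The downstream window holds 36 CG and 70.3% G and C. Of the sequences that homeodomain proteins are known to bind, TGATNNAT (a composite of PBX and HOX sites, in 8.85% of all windows) and TAATTA (in 5.29%) were searched on both strands. Neither was found in the 3 windows of Wscd1. TAATTA, which reads the same on both strands, lay at 2 places in 1 of 2 windows of St3gal6, and the windows of St3gal3, St3gal4 and St3gal5 held neither. A match or its absence says only whether these letters lie in these windows.

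St3gal1 was lowest in driven libraries and intermediate in Hoxa5tdTomato libraries. The 6 references held 40.9 to 86.8 CPM with a median of 52 CPM. The Hoxa5tdTomato libraries held 21.6, 20.7 and 13.6 CPM, and the driven libraries held 3.31, 1.48 and 0.201 CPM, which are 71, 33 and 4 reads. The 3 groups did not overlap in St3gal1.

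St3gal1 fell in driven libraries, with a log2 fold change of -5.11 ± 0.61 (SE), 34.5-fold lower than in the references (edgeR adjusted p = 0.000185). Against the tdT references of its own set the difference was -5.12 ± 0.65 (adjusted p = 0.000956). With 1 library left out at a time it ran from -6.07 to -4.59, and the call was made each time.

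In Hoxa5tdTomato libraries the difference in St3gal1 was -1.63 ± 0.49 (log2, 95% interval -2.67 to -0.59). It did not pass the test (edgeR adjusted p = 0.106; within its set -1.62 ± 0.55, adjusted p = 0.315). That outcome depended on which driven libraries were in the fit, which shares its filter, scaling and spread estimate over all groups. Which of these steps changed it was not tested. Without driven replicate 3 the adjusted p was 0.00659, and without driven replicate 1 it was 0.0484. The DESeq2 Wald test called it too (adjusted p = 0.0137).

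Between Hoxa5tdTomato and driven libraries St3gal1 differed by 3.48 ± 0.59 (log2), 11.1-fold higher in Hoxa5tdTomato (edgeR adjusted p = 0.0223). It was the single member called, beside 3.35% of all genes, 0.916% higher and 2.43% lower. With the references split by column name the call was made too (adjusted p = 0.00352), beside 8.08% of all genes. The call was lost without any 1 of the Hoxa5tdTomato replicates, with adjusted p values of 0.129, 0.107 and 0.0792 without replicates 1, 2 and 3, while the difference kept its direction. The libraries compared come from different sets. The difference between the within-set changes was 3.49 ± 0.80 (log2, adjusted p = 0.367), and in that test 0% of genes were called (0 of 14732, with 1181 at an unadjusted p under 0.05 in edgeR and 54 called by DESeq2, St3gal1 among them with an adjusted p of 0.00337).

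St3gal1 lies on the minus strand at chr15:67102875-67176830 (GRCm38) and overlaps no annotated gene.

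**Figure D2:**
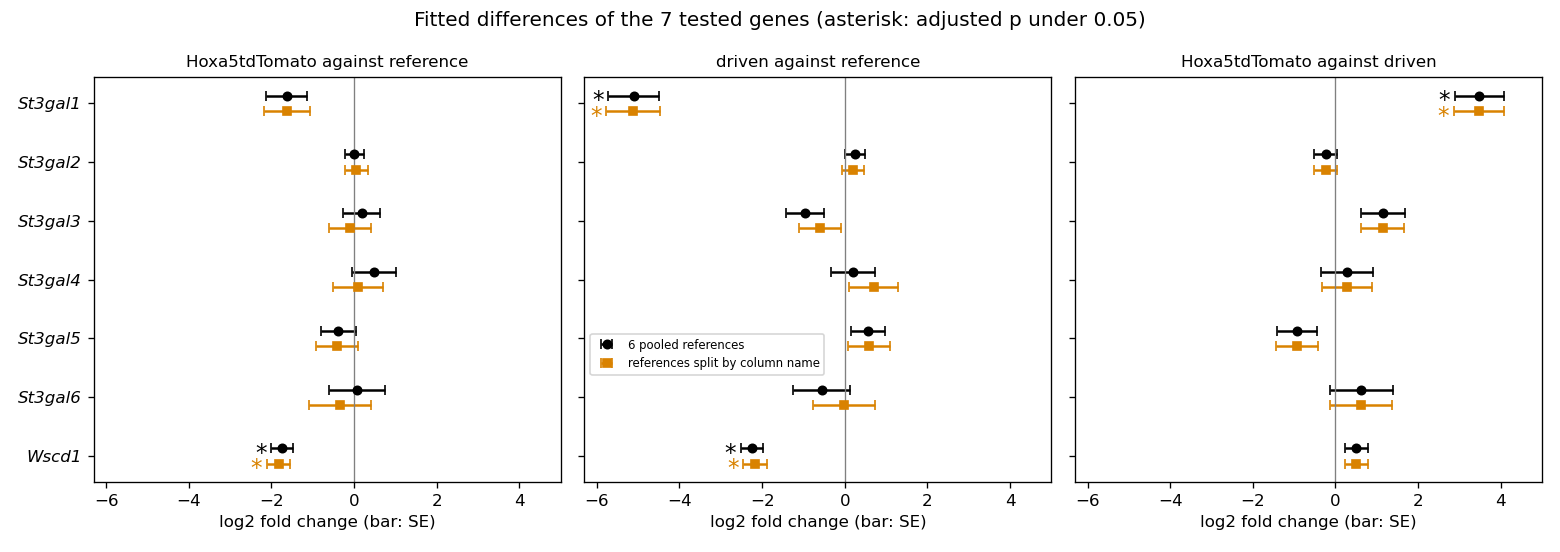
Fitted log2 fold changes (x axis) with their SE for the 7 tested genes (rows) in 3 comparisons (panels), with the 6 references pooled (black circles) or split by column name (orange squares). Asterisks mark adjusted p under 0.05: Wscd1 in both comparisons with the reference, and St3gal1 in the driven comparison and between Hoxa5tdTomato and driven.

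The other 5 St3gal genes passed the test in no comparison of the label groups. St3gal2, the closest counterpart of St3gal1 in acceptor, stood at 38.5 to 50 CPM in the references. It held 55.9, 35.6 and 44.1 CPM in Hoxa5tdTomato libraries and 51.9, 35.8 and 72.5 CPM in driven libraries. These ranges overlapped, and the intervals of its log2 difference from the references were -0.5 to 0.51 for Hoxa5tdTomato and -0.25 to 0.75 for driven.

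St3gal5, the GM3 synthase, varied more within the driven group than within the other groups. The references held 41.7 to 64.8 CPM with a median of 50.7 CPM, and the Hoxa5tdTomato libraries held 41.3, 39.7 and 37.8 CPM, all just below them. Driven replicates 1 and 2 held 26.1 and 31.3 CPM, below every other library, and replicate 3 held 169 CPM, above every other library. The fitted difference for driven was 0.56 ± 0.41 (log2, edgeR adjusted p = 0.529) and turned to -0.84 ± 0.24 without replicate 3 (adjusted p = 0.0813). For Hoxa5tdTomato it was -0.38 ± 0.43 (adjusted p = 0.773).

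St3gal3 held 10.4, 14.6 and 13 CPM in Hoxa5tdTomato libraries and 9.78, 3.46 and 3.86 CPM in driven libraries, with references at 7.31 to 18.7 CPM. The Hoxa5tdTomato libraries lay above all driven libraries, but the difference of 1.15 ± 0.53 (log2) did not pass the test (edgeR adjusted p = 0.213). St3gal4 ranged from 3.69 to 11.4 CPM and St3gal6 from 1.28 to 10.8 CPM over the 12 libraries, with overlap between all label groups. St3gal2 to St3gal6 each overlap an annotated gene on the opposite strand, and since the strand setting of the counting is not given, reads of the partners cannot be told apart.

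Members whose Hoxa5tdTomato libraries all lay below all references were St3gal1, St3gal5 and Wscd1, as did 6.93% of all tested genes. For driven libraries they were St3gal1 and Wscd1, as did 3.27%. Members whose Hoxa5tdTomato libraries all lay above all driven libraries were St3gal1 and St3gal3, as did 14.7%. As these counts use the contrasts that led to these genes, nothing is read from them.

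Wscd2 was at or near 0. Its reads numbered 1, 0, 0, 0, 0 and 6 in the 6 references, 0, 0 and 4 in the Hoxa5tdTomato libraries, and 14, 0 and 54 in the driven libraries. A count of 0 allows up to 3 counts, or 0.107 to 0.274 CPM by library, for counting error alone. The most reads came from driven replicate 3, at 2.71 CPM, and it was not tested.

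Within the summed RPKM of the 6 St3gal genes, St3gal1 made up 13.8% to 29.3% in the references, 5.97% to 9.45% in Hoxa5tdTomato libraries and 0.0369% to 1.83% in driven libraries. St3gal5 made up 33.6% to 53.8% in the references, 38% to 43.2% in Hoxa5tdTomato and 34.4% to 74.5% in driven libraries. The sum itself was 50 ± 4.06 RPKM in the references (SD, n = 6) and 40.3 ± 3.61 RPKM in Hoxa5tdTomato libraries (n = 3). In driven libraries it was 25.1, 30.9 and 93 RPKM, the last in replicate 3 and mostly St3gal5. By mean RPKM St3gal1 ranked the third of the 8 members in the references, the sixth in Hoxa5tdTomato and the last in driven libraries; without driven replicate 3 it ranked above Wscd2 there.

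**Figure D3:**
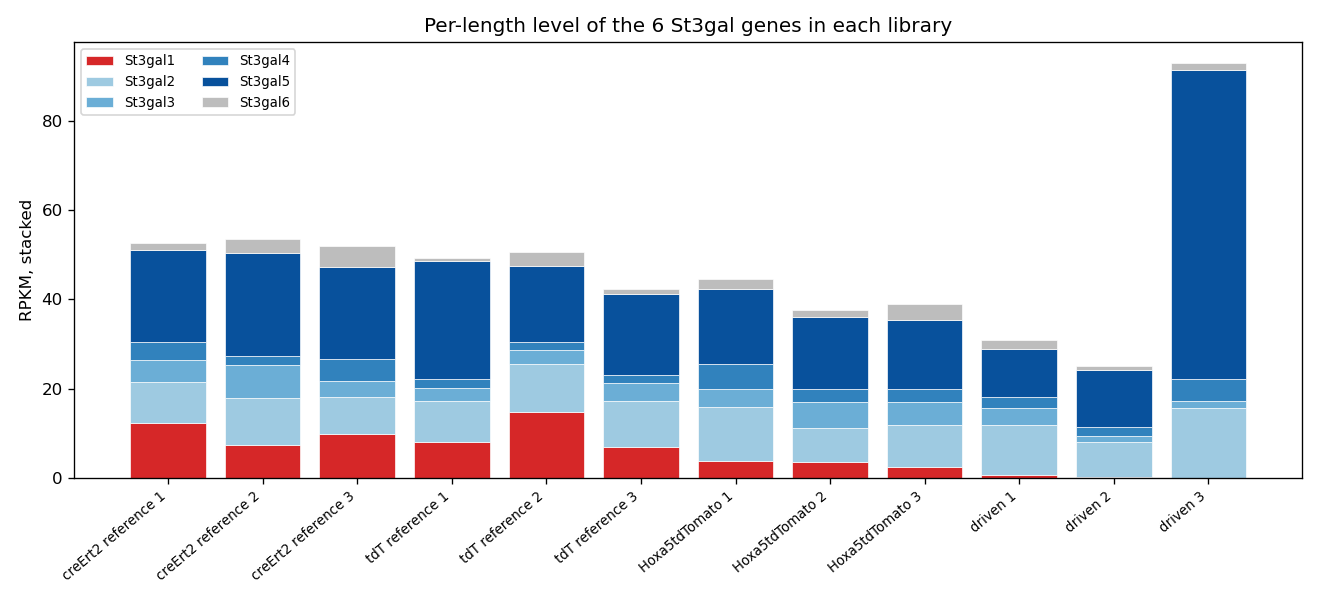
Stacked levels per length in RPKM (y axis) of the 6 St3gal genes in each of the 12 libraries (x axis). The red St3gal1 segment is between 13.8% and 29.3% of the stack in references and at most 1.83% in driven libraries, and driven replicate 3 is tallest at 93 RPKM, most of it St3gal5.

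The genes most like St3gal1 and Wscd1 over the 12 libraries are given as a description, since the libraries fall into the same groups for all genes. For Wscd1 they were Tmem178 (Pearson r 0.952, Spearman rho 0.888), Fbxl7 (0.937 and 0.881) and Ncam2 (0.931 and 0.762), out of 14731 other genes. Ncam2, a cell adhesion molecule, held 268 ± 43.3 CPM in the references, 67.1 ± 18 in Hoxa5tdTomato and 34.6 ± 8.89 in driven libraries (SD). For St3gal1 they were Klhl1 (0.971 and 0.881), Cd300a (0.958 and 0.804) and Fam64a (0.95 and 0.72). Klhl1, a kelch-family protein, held 109 ± 11.2 CPM in the references, 58.5 ± 4.13 in Hoxa5tdTomato and 29.5 ± 12.8 in driven libraries. St3gal1 and Wscd1 correlated with each other at r = 0.716 over the 12 libraries.

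Genes around sialic acid were taken from 7 lists of 77 genes, of which 55 passed the filter on low counts. In Hoxa5tdTomato libraries 0 of the 55 rose and 3 fell. In driven libraries 1 rose and 2 fell. Between Hoxa5tdTomato and driven libraries 2 were lower and 0 higher. These shares stand beside 1.73%, 1.84% and 3.35% of all genes called in the 3 comparisons, and no list is called particular from them. None of the 5 tested genes for the supply of CMP-sialic acid, the donor sugar, passed in the 3 comparisons. The same held for the 5 of the ganglioside core. The medians of these lists lay between -0.55 and 0.29, beside 0, 0 and 0.02 over all genes. Single core genes lay further out in driven libraries. B3galt4 was at 0 CPM there and at 0.0713 to 1.6 CPM in references (log2 fold change -6.72 ± 1.91, edgeR adjusted p = 0.0876). A count of 0 allows up to 0.135 to 0.15 CPM in these libraries, above the lowest reference, so the size of that change is poorly determined. B4galt6 held 118 to 179 CPM in driven libraries against 73.8 to 113 CPM in references (0.65 ± 0.19, edgeR adjusted p = 0.0802). In Hoxa5tdTomato libraries it held 117 to 133 CPM, also above every reference (0.47 ± 0.19, edgeR adjusted p = 0.231).

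Among the 13 tested sialyltransferases of other kinds, St6gal2, which adds sialic acid to galactose in another linkage, fell in Hoxa5tdTomato libraries (log2 fold change -1.07 ± 0.20, edgeR adjusted p = 0.0113; within the set -0.78 ± 0.17, adjusted p = 0.0474). It held 135 to 209 CPM in the references and 72.1 to 87.5 CPM there, with no overlap, and was lower than in driven libraries as well (-1.06 ± 0.22, adjusted p = 0.0255). St6galnac5, a ganglioside sialyltransferase of brain, fell in driven libraries (-1.73 ± 0.43, edgeR adjusted p = 0.0495), a call not made within the set. It varied among driven libraries, from 7.47 to 35.5 CPM, with references at 42.6 to 65.6 CPM. The driven mean was 17.1 CPM, and 21.5 CPM without replicate 3. St8sia1, the GD3 synthase, was lower in Hoxa5tdTomato than in driven libraries (-0.95 ± 0.24, edgeR adjusted p = 0.0449). Driven replicate 3 held 345 CPM of St8sia1, and the other driven libraries held 184 and 193 CPM. For St6gal2 and St8sia1, set and condition cannot be told apart in the comparison with driven libraries. The creErt2 and tdT references did not overlap in either gene (St6gal2 135 to 144 against 197 to 209 CPM, St8sia1 139 to 158 against 175 to 216 CPM).

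Of 13 tested galactose acceptor genes, B3galt1, a galactosyltransferase, fell in Hoxa5tdTomato libraries (log2 fold change -0.68 ± 0.15, edgeR adjusted p = 0.0294), a call not made within the set. Among 13 tested carbohydrate sulfotransferases, Chst15, which sulfates chondroitin sulfate, fell in both groups, with -1.77 ± 0.38 in Hoxa5tdTomato (adjusted p = 0.0261, not called within the set) and -2.09 ± 0.39 in driven libraries (adjusted p = 0.00876). Ust, another sulfotransferase of chondroitin and dermatan sulfate, rose in driven libraries by 1.69 ± 0.30 (adjusted p = 0.00589). The 6 tested genes for removing or modifying sialic acid gave no call with pooled references; within the set Ctsa, a lysosomal partner of sialidase, rose in driven libraries by 1.46 ± 0.32 (adjusted p = 0.0446). In the same fit of 4 column-name groups, Hoxa5tdTomato libraries were higher than driven libraries in Npl, a sialic acid lyase (0.64 to 3.11 CPM against 0.0502 to 0.135 CPM, the latter within the limit that a count of 0 allows; adjusted p = 0.0479), and lower in Gal3st3, a galactose sulfotransferase (-1.24 ± 0.35, adjusted p = 0.0412). The references held 0.963 to 4.62 CPM of Npl. Against the pooled references its log2 difference was -0.43 ± 0.93 in Hoxa5tdTomato (edgeR adjusted p = 0.897) and -4.44 ± 1.18 in driven libraries (adjusted p = 0.0649). The sialic acid-binding lectins, of which 11 of 12 were in the table, had counts too low for any to be tested.

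**Figure D4:**
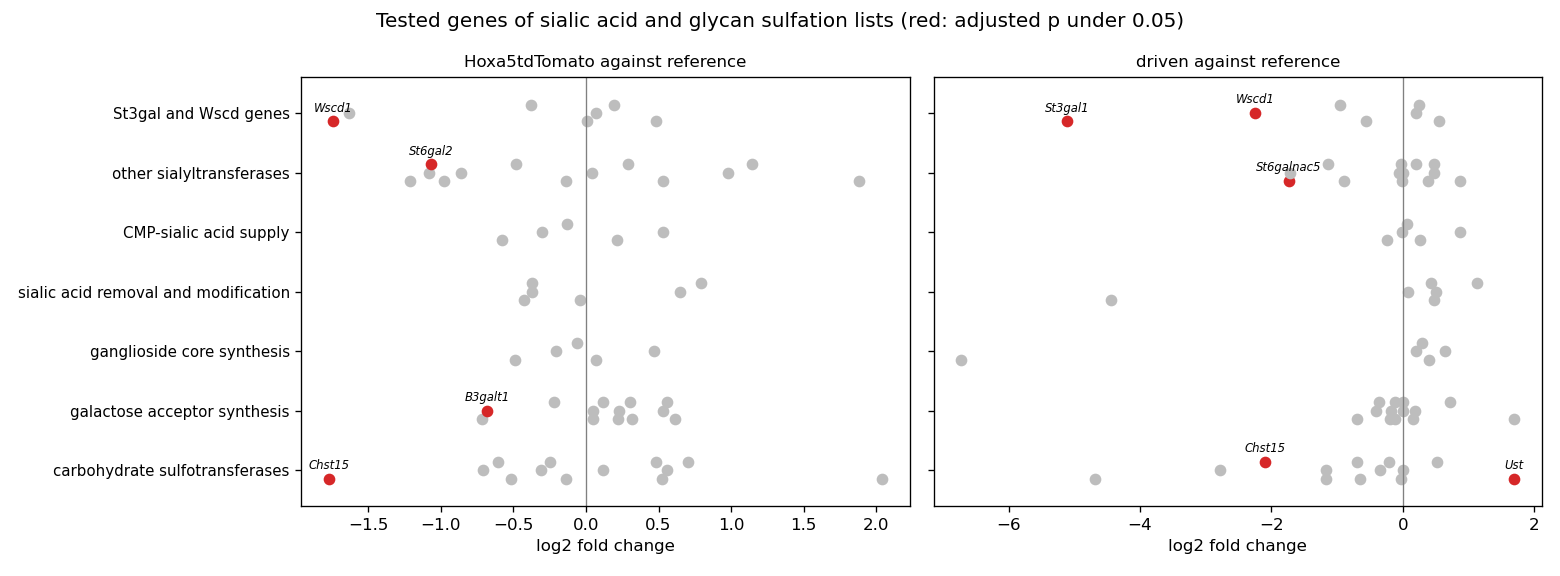
Fitted log2 fold changes (x axis) of the tested members and the tested genes of the sialic acid and sulfation lists (rows) in Hoxa5tdTomato (left) and driven libraries (right) against the references. Each point is 1 gene, and red points with names are those with adjusted p under 0.05. The largest named decrease is that of St3gal1 in driven libraries at -5.11.

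The labelled tissue was checked against 13 markers of pontine and general neurons. Their summed level was 5230 to 6930 CPM in references, 4790 to 5460 in Hoxa5tdTomato and 6270 to 7200 in driven libraries. Of the 13, 3 were lower in all Hoxa5tdTomato libraries than in all references, as were 6.93% of all tested genes. Barhl1, Pax6 and Slc17a6 were present in every library. Slc17a7 and Lhx9 were near 0, with means up to 1.19 CPM. Lhx2 fell in driven libraries (log2 fold change -5.16 ± 0.94, edgeR adjusted p = 0.00732). Its mean was also lower in Hoxa5tdTomato, at 4.84 CPM against 33.5 CPM in references, without a call (-2.8 ± 0.81, adjusted p = 0.0931). Snap25 rose in driven libraries (0.60 ± 0.15, adjusted p = 0.0463, within the set 0.185). Hoxa5tdTomato was lower than driven in Pax6 (-1.06 ± 0.23, adjusted p = 0.0307) and Snap25 (-0.78 ± 0.18, adjusted p = 0.0329). With 4 column-name groups Map2 was called too (-0.5 ± 0.11, adjusted p = 0.0096). Set and condition cannot be told apart there. Summed markers of vessels, of meninges and of astrocytes and radial glia lay above all references in the Hoxa5tdTomato libraries, though few single markers passed the test. With pooled references 2 of 11 endothelial and 3 of 7 tested pericyte markers were called higher there, beside 0.842% of all genes. Of the tested markers of astrocytes and radial glia 2 of 7 were called higher too. Within the set 1 of 11, 0 of 7 and 0 of 7 were called, beside 0.557% of all genes in either direction. Endothelial markers summed to 3.17 to 34.4 CPM in references, 125 to 241 in Hoxa5tdTomato and 8.38 to 64.4 in driven libraries, with 10 of 11 higher in all Hoxa5tdTomato libraries than in all references, as were 7.15% of all tested genes. Pericyte markers summed to 2 to 20.8, 104 to 210 and 2.36 to 55.2 CPM, with 6 of 8 likewise higher and Anpep at 0 in all 6 references. Markers of meninges summed to 0.729 to 3.99, 9.43 to 14.7 and 0 to 7.24 CPM. Microglial markers summed to 0.321 to 15.3, 7.88 to 57.7 and 0 to 6.07 CPM. Those of astrocytes and radial glia summed to 279 to 707, 808 to 1160 and 440 to 812 CPM. The 2 glial markers called higher in Hoxa5tdTomato were Ptprz1 (log2 fold change 1.58 ± 0.3) and Slc4a4 (1.38 ± 0.27), each with an edgeR adjusted p of 0.0141. Ptprz1 was called higher in driven libraries as well (1.49 ± 0.3, edgeR adjusted p = 0.0143). None of these calls was made within the set. Ptprz1 had means of 142, 424 and 397 CPM. In Hoxa5tdTomato Slc1a3 and Gfap had lower means than in references, and the other glial markers of that list higher ones. In driven libraries Slc1a3, Fabp7, Aldh1l1, Aqp4 and Gja1 had lower means, and Ptprz1, Slc4a4 and Gfap higher ones. Markers of oligodendrocytes summed to 39.9 to 81.7, 79.4 to 99.3 and 39.6 to 72.6 CPM. Erythroid markers summed to 0.642 to 13.9, 7.83 to 17.4 and 0.702 to 4.81 CPM. Those of GABAergic and glycinergic neurons summed to 156 to 307, 120 to 221 and 163 to 431 CPM. Most of that sum was Gad2 (means 169, 156 and 223 CPM), and Lhx1 (28.8, 8.17 and 53 CPM) had the same order. The means of Gad1 (1.47, 2.82 and 0 CPM), Slc32a1 (0.181, 3.15 and 0.155 CPM) and Slc6a5 (0.209, 0.579 and 0 CPM) were highest in Hoxa5tdTomato. Lhx5, near 0, was highest there too. In driven libraries 0 of the 11 endothelial and 0 of the 8 pericyte markers lay above all references in every library, as did 3.11% of all tested genes. Driven replicate 2 held the summed 64.4 CPM of endothelial and 55.2 CPM of pericyte markers, above every reference. The part of these cells in the levels of St3gal1 and Wscd1 was not tested in either group.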

How the data were processed

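Raw counts of reads per gene, without normalization, were deposited as 1 table of 23079 genes by 12 libraries with gene lengths, per the file headers. Per the submitters' processing notes, the build was mm10 and base calling used bcl2fastq 1.8.4; which aligner, counter, annotation and strand setting were used is not given in the sources used here. Reads were made from amplified cDNA without molecular identifiers, per the labels' protocols, so limits from counts cover counting error only. From these counts, 14732 genes passed filterByExpr of edgeR 4.0.16 (minimum count 10; R 4.3.3). TMM scaling and the quasi-likelihood F test followed, with 1 mean per label group over all 12 libraries (common dispersion 0.312) and Benjamini-Hochberg adjustment over all tested genes at 0.05. A fit of 4 column-name groups gave within-set values. SE is the log2 fold change over the square root of F, and intervals are 95%. Other scalings, filters, thinned counts, DESeq2 1.42.0, a replicate block and omitted libraries were tried. The procedure was tested on simulated data. Reference columns could not be matched to label numbers and were used by group. Named genes were all 8 members, up to 4 called genes per list and comparison with the smallest adjusted p (Ctsa, Npl and Gal3st3, called in the fit of 4 column-name groups, were added after their values were seen), Hoxa5, and the 3 genes most like the member with the largest change in each comparison with the reference. Marker genes named were also chosen after their values were seen. Members and lists were chosen with earlier results of these data known.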

Additional observations from a re-analysis of the deposited data

Results flagged for a closer look

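Wscd2 was marked because 1 of its 6 reference libraries, tdT reference replicate 3, stood apart from the others at 0.257 CPM (6 reads), while the rest held 0 or 1 read. Its gap to the nearest library was 0.655 of the whole range, above Dixon's 95% critical value for 6 samples. Chance marks about 1 in 20 groups in this way only where levels are normally distributed, which reads mostly at 0 are not. At these counts the level is near the floor of 3 counts.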

How the results depend on the processing

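Of 200 log2 fold changes of members recomputed under alternatives other than omitted libraries, 182 kept direction and side of the threshold, 1 lost its call, 3 gained one and 14 changed sign. Of 276 with 1 library left out, these were 258, 3, 2 and 13. Wscd1 kept its calls in both comparisons with the reference and St3gal1 its call in driven libraries under every alternative run. The cause was not tested for the other changes.

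With 4 column-name groups, 82, 127 and 1191 genes were called in Hoxa5tdTomato against reference, driven against reference and Hoxa5tdTomato against driven, in place of 255, 271 and 493; St3gal3 and St3gal6 turned to -0.1 and -0.33 in the comparison of Hoxa5tdTomato with the reference. With library size only, 148 genes were called between Hoxa5tdTomato and driven, and St3gal2 turned to 0.06. DESeq2 called 622, 831 and 1484 genes, 589 between reference sets and 54 in the difference of within-set effects, with 2 members lower in Hoxa5tdTomato and 1 member higher in that difference; it gave St3gal5 no adjusted p.

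Same-numbered libraries of a set correlated at -0.0281 to 0.0493 in their deviations from group means, so the numbers were not taken to pair samples. With the replicate block, 72, 77 and 0 genes were called (0 members between Hoxa5tdTomato and driven, where St3gal1 was 3.89, adjusted p = 0.538). There St3gal3 and St3gal6 turned to -0.06 and -0.28 in Hoxa5tdTomato, St3gal6 to 0.3 in driven libraries, and St3gal4 and St3gal6 to -0.45 and -0.58 between Hoxa5tdTomato and driven. The block could not be fitted to the comparison of reference sets.

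An alternative chosen after seeing the data, 4 column-name groups with driven replicate 3 omitted, called 2 members lower in Hoxa5tdTomato and 1365 genes between Hoxa5tdTomato and driven. It gave St3gal3 -0.1 and St3gal6 -0.33 in Hoxa5tdTomato, St3gal2 -0.08 and St3gal5 -0.81 in driven libraries, and 0.04 and 0.46 for these between Hoxa5tdTomato and driven.

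With 1 library left out, called genes ran from 35 to 728 in Hoxa5tdTomato, 190 to 575 in driven, 0 to 1157 between these, 40 to 784 between reference sets and 0 to 3 in the difference of within-set effects. Members called lower in Hoxa5tdTomato ran from 1 to 2, and higher than in driven from 0 to 1. Signs changed in Hoxa5tdTomato for St3gal2 (-0.18 to 0.15) and St3gal6 (-0.34 to 0.38), in driven libraries for St3gal2 (-0.03 to 0.48), St3gal4 (-0.27 to 0.45) and St3gal5 (-0.84 to 0.96), and between the groups for St3gal2 (-0.45 to 0.04), St3gal4 (-0.09 to 0.75) and St3gal5 (-1.34 to 0.46). Driven counts of St3gal1 were 4 to 71 reads, and counts this low, like those of Wscd2, limit precision.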
